A study of Homo sapiens with 12 samples.

Results

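The genes described here encode the subunits of oxidative phosphorylation, the chain of protein complexes in the inner mitochondrial membrane that turns electrons from nutrients into ATP. They were chosen by name: protein-coding rows whose symbol starts with the stem of a complex I to V subunit or with MT-, without the assembly factors. This gave 99 of 23195 listed genes, and 14515 of the listed genes were protein-coding. Of the members, 13 are encoded by the mitochondrial genome and 86 by the nucleus. By complex, 44 belong to complex I, 4 to complex II, 10 to complex III, 18 to complex IV and 23 to complex V. The rule also takes 4 genes that are not subunits: COX7A2L, ATP5IF1, ATP5S and the readthrough gene ATP5MF-PTCD1.

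The study sequenced polyA RNA of HCT116, an established human colon cancer line that carries wild-type p53. In 4 groups of 3 libraries, RFX7 was knocked down with siRNA (siRFX7) or cells had a control siRNA (siControl), and 10 µM Nutlin-3a or the solvent DMSO was given for 24 h. The groups are therefore siControl with DMSO, siControl with Nutlin-3a, siRFX7 with DMSO and siRFX7 with Nutlin-3a. All groups carry an siRNA. Whether replicates were separate cultures is not given in the sources used here, so p-values measure the spread between these libraries, which may be technical. Nutlin-3a blocks the binding of MDM2 to p53 and so activates p53, and RFX7 is a transcription factor of the RFX family.

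Complex I (NADH dehydrogenase) and complex II (succinate dehydrogenase) pass electrons to ubiquinone, complex III hands them to cytochrome c, and complex IV (cytochrome c oxidase) passes them to oxygen. Complexes I, III and IV pump protons, and complex V, the ATP synthase, uses the resulting gradient. The mitochondrial genome encodes core parts of every complex but complex II. Its genes are transcribed as long precursor RNAs from both strands by a dedicated polymerase and then cut apart, whereas the nuclear members each have their own promoter and their proteins are imported.

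The mitochondrial members lie close together, and some share bases. MT-ATP8 and MT-ATP6, both of the membrane part of complex V, overlap by 46 bases, and MT-ND4L and MT-ND4 of complex I overlap by 7 bases, in GENCODE release 29 on GRCh38. The first 30 bases of the former overlap, chrM:8527-8556 on the plus strand, and the latter overlap, chrM:10760-10766, are shown with the start codon of the downstream gene in capitals, because reads from these bases belong to both genes.
MT-ATP8 and MT-ATP6: ATGaacgaaaatctgttcgcttcattcatt
MT-ND4L and MT-ND4: ATGctaa
Of the 13 genes, 12 are read from the plus strand of the reference. MT-ND6, at 14149 to 14673, is the exception on the minus strand.

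Among the nuclear members, 68 of 86 matched a RefSeq promoter window (GRCh38.p14, 250 bases before to 50 after the start), with 81 windows in all. The match for NRF1, a transcription factor known for activating respiratory chain genes, was searched as GCGCATGC on both strands. It was found in 15 of the 81 windows (18.5%), in 14 members, against 4.25% of 16950 windows of listed protein-coding genes. The sites of 4 members are shown, each as 30 bases on the gene's strand with the match in capitals. In 3 of them both strands match, giving overlapping matches of 10 bases.
ATP5F1C (chr10:7788145-7788174, plus strand): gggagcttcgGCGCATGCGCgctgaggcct
NDUFB4 (chr3:120596167-120596196, plus strand): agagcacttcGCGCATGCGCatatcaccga
SDHD (chr11:112086753-112086782, plus strand): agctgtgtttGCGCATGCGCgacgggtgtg
NDUFA6 (chr22:42090920-42090949, minus strand): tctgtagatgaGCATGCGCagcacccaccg
The GABPA match CCGGAAGT was in 14.8% of member windows against 6.63% of the protein-coding windows, and the YY1 match AAGATGGC in 16.0% against 4.29%. CCAAT was in 33.3% against 34.3% and TATAAA in 7.41% against 6.84%. The short RFX motif GTTGCCA was in 1 member window, of ATP5F1A (1.23% against 3.77%). These are matches of letters on either strand, not binding sites, and the 14 members with an NRF1 match were called in both directions: Nutlin-3a gave 2 higher and 2 lower in siControl cells (22% and 21.2% of all genes) and 1 and 4 after siRFX7 (21.7% and 19.7%). The siRFX7 effect was 5 higher and 1 lower in DMSO (13.5% and 15.5% of all genes), against 1 and 1 in Nutlin-3a (15% and 13.6%).

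The files give statistics per group and not per library, so each level below is a group mean of normalized counts, recovered from the overall mean and the fold changes of the authors' deposited tables. Its standard error (SE) comes from their standard errors. Group means over all genes summed to between 2.59e+07 and 2.74e+07 normalized counts. RFX7 fell to 19.6% of siControl in DMSO and 22.6% in Nutlin-3a. The epithelial markers EPCAM, CDH1, KRT8, KRT18 and KRT19 were all at mean counts above 1000, CDX1 was not in the tables, nor were PTPRC, PECAM1 and ALB of other cell types. Of 3 fibroblast collagens, COL1A2 and COL3A1 had mean counts of 1.42 and 2.08 and COL1A1 441. COL1A1 rose with siRFX7 by 0.36 and 0.52 on the log2 scale, and its part in the results was not tested. In bulk RNA, fewer cells with a transcript and less of it per cell cannot be told apart. A gene was called changed at the authors' adjusted p below 0.05. Of the 99 members, 97 were tested in all 4 comparisons, 83 had a mean count of at least 1000 and 8 had a mean under 100.

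Of the 13 mitochondrially encoded members, between 7 and 12 rose in each comparison and none fell. MT-ND6 was not called in any. Their summed level was 0.450% of all normalized counts in siControl with DMSO, 0.649% in siControl with Nutlin-3a, 0.854% in siRFX7 with DMSO and 1.57% in siRFX7 with Nutlin-3a. In summed normalized counts the last group was 3.48 times the first. Nuclear members took 1.08%, 1.105%, 1.19% and 1.14% in the same order, and the ratio of mitochondrial to nuclear member counts went from 0.417 to 1.38. Genes on the same strand come from the same precursor RNAs, so they are not independent observations, and of the 13 only MT-ND6 is on the minus strand.

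MT-CO2, a catalytic core subunit of complex IV, had a group mean of 13721 normalized counts in siControl with DMSO, 19317 in siControl with Nutlin-3a, 26542 in siRFX7 with DMSO and 47457 in siRFX7 with Nutlin-3a. In the authors' deposited tables its log2 fold change with siRFX7 was 0.95 (SE 0.12, adjusted p = 7.9e-14) in DMSO and 1.30 (SE 0.12, adjusted p = 2.77e-25) in Nutlin-3a. Each group of this gene stood apart from the next by more than the SE of the means. MT-ND4, a proton-pumping core subunit of complex I, went from 17854 through 28059 and 34961 to 68331 in the same order of groups. MT-ATP6, part of the proton channel of the ATP synthase, went from 11969 through 17623 and 20523 to 40497. MT-CYB, the complex III cytochrome b, went from 8065 through 11394 and 15813 to 30726. These 4 genes thus had the same order of group means, and not every mitochondrial member did. MT-ND2 had 9207 per kb in siControl with Nutlin-3a and 8979 in siRFX7 with DMSO, and MT-ND6 is described below. The step between these middle groups is not one of the 4 comparisons and was not tested. For MT-ATP6 it was small beside the SE of 0.25 of its fold changes.

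**Figure D1:**
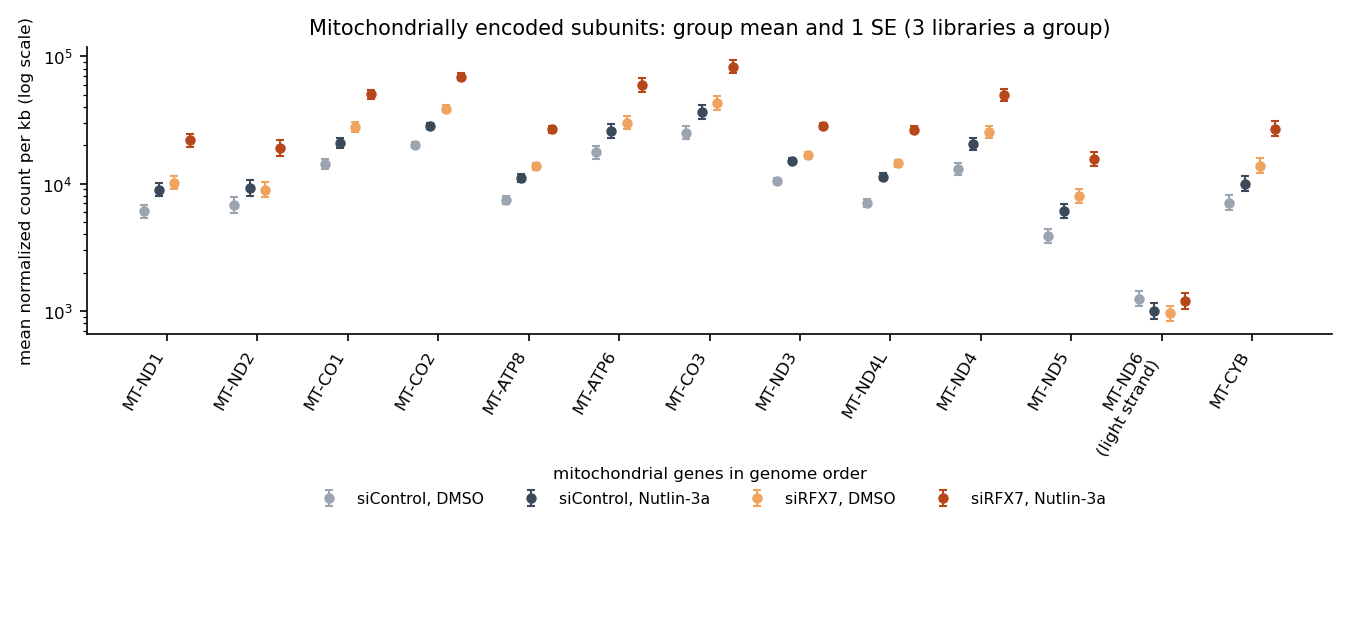
Group means of normalized counts per kb of gene (y axis, log scale) for the 13 mitochondrially encoded subunit genes in genome order (x axis); points are the 4 groups and bars are 1 SE. In 12 genes siRFX7 with Nutlin-3a is the highest group, while the 4 means of MT-ND6 lie between 956 and 1247 per kb.

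Per kb of gene, MT-CO3 (core of complex IV) was the most abundant in siControl with DMSO at 25173 normalized counts per kb, followed by MT-CO2 at 20061, MT-ATP6 at 17575, MT-CO1 at 14300 and MT-ND4 at 12956. The complex I genes MT-ND5 (3899 per kb) and MT-ND6 (1247 per kb) were the lowest. In siRFX7 with Nutlin-3a the first 3 places were the same, at 82780, 69382 and 59467 per kb. Among the neighbours in this order, MT-CO2 and MT-ATP6, and MT-CO1 and MT-ND4, differed by less than the SE of their difference; the SE of the log2 group mean was 0.18 for MT-ATP6 and 0.08 for MT-CO2. MT-ATP8, which overlaps MT-ATP6, stood at 7398 per kb.

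With siRFX7, 11 of 13 mitochondrial members rose in DMSO and 12 of 13 in Nutlin-3a, and none fell, also at an unadjusted p below 0.05 (DESeq2). Of all genes tested, 13.5% rose and 15.5% fell in DMSO, and 15% rose and 13.6% fell in Nutlin-3a. Without MT-ND6, their log2 fold changes ran from 0.40 (MT-ND2) to 1.04 (MT-ND5) in DMSO and from 0.90 (MT-ND3) to 1.43 (MT-CYB) in Nutlin-3a. The medians over the 13 were 0.88 and 1.26. The 2 comparisons share no library, and 11 genes rose in both. In Nutlin-3a, the lowest of those 12 values lay above the highest of the 78 nuclear members with a mean count of at least 100 (0.45, NDUFC2).

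With Nutlin-3a, 7 of 13 mitochondrial members rose in siControl and 12 of 13 in siRFX7, and none fell. Of all genes tested, 22% rose and 21.2% fell in siControl, and 21.7% rose and 19.7% fell in siRFX7. The medians were 0.55 and 0.95. The 5 genes other than MT-ND6 that missed the threshold in siControl, MT-ND1, MT-ND2, MT-CYB, MT-CO3 and MT-ATP6, had log2 fold changes of 0.44 to 0.57, beside 0.49 to 0.68 for those that passed it. Errors differed between genes: the SE was 0.25 for MT-CO3, with an adjusted p of 0.0679 in the authors' deposited table, against 0.12 for MT-CO2. A different response of the genes that passed and missed the threshold is therefore not shown.

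The difference between the Nutlin-3a effects in siRFX7 and in siControl was tested for each gene with a two-sided z test, adjusted by Benjamini-Hochberg over 23195 genes. It was above 0 for 13 of 13 mitochondrial members, with a median of 0.38, and called for none of them, with 1 at an unadjusted p below 0.05. The smallest adjusted p was 0.282, for MT-CO2, whose difference was 0.34 (SE 0.17). Of all genes, 6.2% were called, 3.28% above 0 and 2.92% below 0. A larger rise with Nutlin-3a under siRFX7 was thus not detectable for single mitochondrial genes at these errors.

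MT-ND6, a complex I core subunit, had 655 normalized counts in siControl with DMSO, 522 in siControl with Nutlin-3a, 502 in siRFX7 with DMSO and 628 in siRFX7 with Nutlin-3a. The 4 means were close together, and siRFX7 with Nutlin-3a was not the highest group, as it was in the other 12. Its log2 fold changes in the authors' deposited tables were -0.33 and 0.32 with Nutlin-3a (siControl and siRFX7) and -0.38 and 0.27 with siRFX7 (DMSO and Nutlin-3a), each with an SE of 0.28 and none called. With siRFX7 in Nutlin-3a its 95% interval, -0.29 to 0.82, ended below the lowest fold change of the other 12. How the counting handled strand is not given in the sources used here, and RNA of the opposite strand across this gene cannot be told apart.

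The 2 mitochondrial ribosomal RNAs are not members, and they differed in which comparisons were called. In the authors' deposited tables the small one, MT-RNR1, rose with Nutlin-3a by 1.07 (SE 0.11, adjusted p = 1.18e-20) in siControl and 1.16 (SE 0.11, adjusted p = 4.59e-24) in siRFX7 on the log2 scale. With siRFX7 its values were 0.04 (SE 0.11, adjusted p = 0.826) in DMSO and 0.13 (SE 0.11, adjusted p = 0.418) in Nutlin-3a. The large one, MT-RNR2, rose in all 4 comparisons, by 0.66 to 0.92 with Nutlin-3a and by 0.55 and 0.81 with siRFX7. These libraries were made from polyA RNA, so the level of a mitochondrial RNA here also depends on its polyA tail, and that part was not tested.

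Replicates of the mitochondrial members varied more than those of other abundant genes. The coefficient of variation between replicates, recovered from the authors' standard errors, was 8.35% (MT-ND3) to 24.5% (MT-ND2) with a median of 21.0%. For 71 nuclear members with a mean count of at least 1000 it was 2.95% to 17.6% with a median of 7.13%, and for 5734 other protein-coding genes of that level the median was 5.13%. Whether 1 library stands apart in these genes cannot be seen from statistics per group, and its part in the rise was not tested. Reads of mitochondrial genes also match nuclear copies. The pseudogene MTATP6P1 had a mean count of 4921, 21.7% of that of MT-ATP6. Its log2 fold changes with siRFX7 in the authors' deposited tables were 0.95 (DMSO) and 1.30 (Nutlin-3a), and MT-ATP6 had 0.78 in DMSO.

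Over all 99 members, 27 rose and 8 fell with Nutlin-3a in siControl (35.4% called, against 43.2% of all genes), and 26 rose and 9 fell in siRFX7 (35.4% against 41.4%). With siRFX7, 33 rose and 7 fell in DMSO (41.2% of 97 against 29%) and 26 rose and 7 fell in Nutlin-3a (34.0% against 28.6%). Of the nuclear members, Nutlin-3a gave 20 higher and 8 lower in siControl cells and 14 and 9 after siRFX7. The siRFX7 effect on them was 22 higher and 7 lower in DMSO, against 14 and 7 in Nutlin-3a. Their median log2 fold changes were 0.02, -0.05, 0.14 and 0.09 in that order, beside 0.02, -0.02, -0.00318 and 0.00218 over all genes tested. Most members are abundant: among 5734 other protein-coding genes with a mean count of at least 1000, 70.2% and 68.1% were called with Nutlin-3a and 45.0% and 42.8% with siRFX7. The split of higher and lower nuclear calls moved with the scaling. Scaled to equal group totals it was 16 and 10, 10 and 13, 32 and 5, and 18 and 5, in the same order of comparisons. Scaled to totals without mitochondrial genes it was 16 and 9, 10 and 12, 34 and 5, and 25 and 4. Centred on the median of protein-coding genes it was 16 and 9, 11 and 12, 27 and 6, and 13 and 8. The mitochondrial counts stayed at 7, 12, 11 and 12 higher under each of the 3 other scalings. This says little, since the scalings shifted log2 fold changes by at most 0.06. The smallest called mitochondrial fold change was 0.49 (MT-CO2, Nutlin-3a in siControl).

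**Figure D2:**
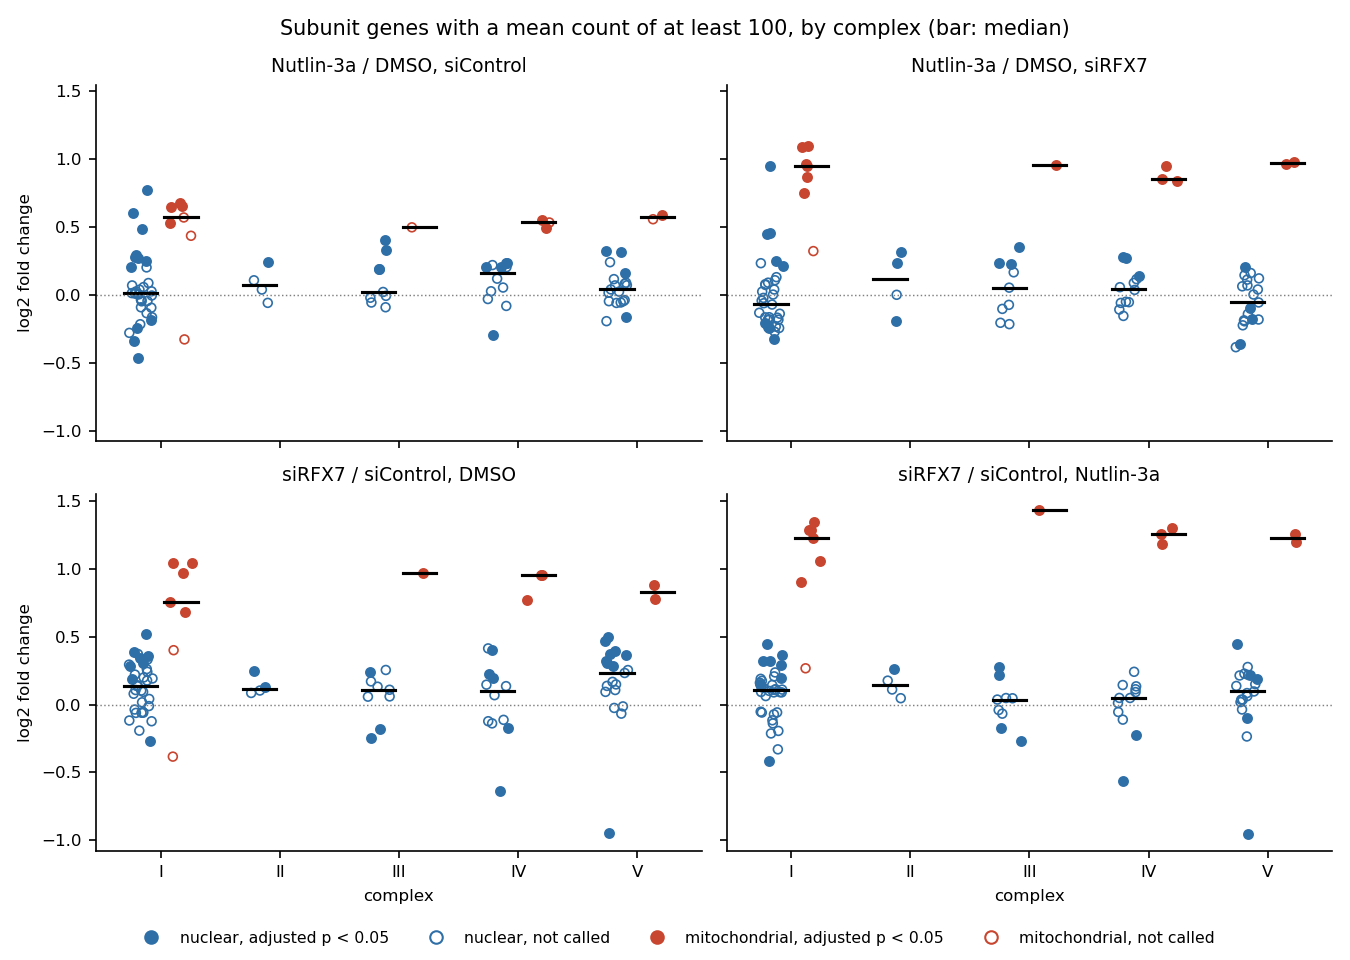
Log2 fold changes (y axis) of the members with a mean count of at least 100 by complex (x axis) in the 4 comparisons; filled points were called at an adjusted p below 0.05, open points were not, and bars are medians. Mitochondrial members (red) lie above most nuclear members (blue) in each complex that has both, except MT-ND6, the lowest red point of complex I, which lies below most nuclear members of that complex with Nutlin-3a in siControl and below all of them with siRFX7 in DMSO.

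Complex I has 7 mitochondrial and 37 nuclear members. Of its 7 nuclear core subunits, which carry the flavin and the iron-sulfur clusters, none was called with siRFX7 by DESeq2 in either treatment, and at an unadjusted p below 0.05 the numbers were 2 (DMSO) and 0 (Nutlin-3a). Of all genes, 29% (DMSO) and 28.6% (Nutlin-3a) were called with siRFX7. With Nutlin-3a in siControl, NDUFS8 was among those that rose (0.21), and NDUFV2 fell (-1.32, at a mean count of 13.8). The pseudogene row NDUFV2P1, at a mean count of 2214, had -0.07 in that comparison and was not called. Whether the transcripts of NDUFV2 fell thus cannot be told from its row. Of the 30 accessory subunits, 6 rose and 4 fell with Nutlin-3a in siControl, and 5 rose and 4 fell in siRFX7. In each treatment, siRFX7 raised 7 of them and lowered 1. Nutlin-3a raised 22% and lowered 21.2% of all genes in siControl, and 21.7% and 19.7% in siRFX7. Among other protein-coding genes with a mean count of at least 1000, these shares were 36.9% and 33.3%, then 39.7% and 28.4%. Whether the accessory subunits responded to Nutlin-3a as a set was not tested. The accessory subunits that rose with Nutlin-3a in both siRNAs were NDUFV3, NDUFS5, NDUFA8, NDUFB2 and NDUFB5. NDUFA6, NDUFB6 and NDUFB10 fell in both.

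NDUFV3, an accessory subunit of the NADH-binding module (chromosome 21, 42879644 to 42913304, plus strand), had 1179 normalized counts in siControl with DMSO, 2020 in siControl with Nutlin-3a, 1131 in siRFX7 with DMSO and 2180 in siRFX7 with Nutlin-3a. Both Nutlin-3a groups were high and both DMSO groups low, under either siRNA. In the authors' deposited tables the log2 fold change with Nutlin-3a was 0.78 (SE 0.055, adjusted p = 1.27e-43) and 0.95 (SE 0.055, adjusted p = 4.51e-65). This was the highest value among the nuclear members in both comparisons. With siRFX7 it was not called (-0.06 and 0.11).

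NDUFS5, an accessory subunit facing the intermembrane space (chromosome 1, 39026318 to 39034636, plus strand), went from 4652 to 7061 normalized counts with Nutlin-3a in siControl and from 5676 to 7801 in siRFX7. It rose with siRFX7 in DMSO by 0.29 (SE 0.09) on the log2 scale, and the value in Nutlin-3a was 0.14 (adjusted p = 0.243 in the authors' deposited table). NDUFA6, an accessory subunit of the matrix arm (chromosome 22, 42085525 to 42090955, minus strand), went the other way with Nutlin-3a: 2015 to 1461 counts in siControl and 2150 to 1829 in siRFX7. Its log2 fold changes were -0.46 (SE 0.06) and -0.23 (SE 0.06). The difference between these, 0.23 (SE 0.09), was not called (z test, adjusted p = 0.122), and the gene was higher with siRFX7 in Nutlin-3a by 0.32.

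NDUFA10, an accessory subunit of the membrane arm, was the complex I member that fell with siRFX7, by 0.27 in DMSO and by 0.42 in Nutlin-3a on the log2 scale (SE 0.06 each). Its group means were 3437, 3221, 2853 and 2416 in the order siControl with DMSO, siControl with Nutlin-3a, siRFX7 with DMSO and siRFX7 with Nutlin-3a. NDUFC2 rose with siRFX7 in both treatments (0.52 and 0.45), as did NDUFB5 (0.38 and 0.32).

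Complex II is encoded by the nucleus alone. SDHA, the flavoprotein that oxidizes succinate, rose with Nutlin-3a by 0.24 (SE 0.08) in siControl and 0.32 (SE 0.08) in siRFX7. SDHC, a membrane anchor, rose with siRFX7 by 0.13 in DMSO and 0.26 in Nutlin-3a (SE 0.05 each). SDHD, the other anchor, rose with siRFX7 in DMSO (0.24) and fell with Nutlin-3a in siRFX7 (-0.19). SDHB, the iron-sulfur subunit, was not called in any comparison, with log2 fold changes between 0.00166 and 0.09.

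In complex III, Nutlin-3a raised 4 of 9 nuclear members in siControl cells and 3 after siRFX7, and none fell. Of all genes, 22% and 21.7% rose in these comparisons and 21.2% and 19.7% fell. Among other protein-coding genes with a mean count of at least 1000, 36.9% and 39.7% rose and 33.3% and 28.4% fell. UQCR10, UQCR11 and UQCRC2 rose in both. With siRFX7, UQCRC1 and UQCRC2, the pair of large matrix-facing core proteins, both fell: UQCRC1 by 0.25 and 0.17 (DMSO, then Nutlin-3a) and UQCRC2 by 0.18 and 0.27 (SE 0.06 each). UQCRC2 thus had 5535, 6956, 4890 and 5762 counts in the order of groups used above, high with Nutlin-3a and low with siRFX7. UQCR10, a small accessory subunit, rose with siRFX7 in both treatments (0.24 and 0.28, SE 0.05 each), as well as with Nutlin-3a. UQCRFS1, the Rieske iron-sulfur protein, was not called in any comparison.

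In complex IV the nuclear accessory subunits moved in both directions. COX7A2, the widely expressed form of subunit 7A (chromosome 6, 75237675 to 75250323, minus strand), had 4023 normalized counts in siControl with DMSO, 4642 in siControl with Nutlin-3a, 2589 in siRFX7 with DMSO and 3140 in siRFX7 with Nutlin-3a. Both siRFX7 groups were below both siControl groups. In the authors' deposited tables it fell by 0.64 (SE 0.08, adjusted p = 9.21e-13) in DMSO and by 0.56 (SE 0.08, adjusted p = 3.01e-10) in Nutlin-3a, to 64.4% and 67.6% of siControl. Its pseudogene row COX7A2P2, at a mean count of 560, fell as well, by 0.62 and 0.52. With Nutlin-3a COX7A2 rose (0.21 and 0.28). COX7A2L, which joins complexes III and IV into supercomplexes, fell with siRFX7 in Nutlin-3a (-0.23) and rose with Nutlin-3a in siControl (0.20).

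COX8A fell with Nutlin-3a in siControl (-0.29), and COX5A fell with siRFX7 in DMSO (-0.17). COX7B, COX7C and COX6A1 rose with siRFX7 in DMSO (0.40, 0.20 and 0.22), and none of these passed the threshold in Nutlin-3a. Of the tissue-restricted forms, COX4I2, COX6A2, COX7A1 and COX7B2 were not in the tables. The testis form COX6B2 was low, at a mean count of 21.7, and rose with siRFX7 (0.91 and 1.24), while COX8C was at 2.17 and was not in the siRFX7 tables.

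NDUFA4L2, a paralogue of the complex IV subunit NDUFA4 known as a hypoxia-induced gene, had 41.1 normalized counts in siControl with DMSO and 8.47 in siControl with Nutlin-3a, against 14.9 and 11.5 in siRFX7 with DMSO and Nutlin-3a. The group of siControl with DMSO was high and the other 3 were low. It fell with Nutlin-3a in siControl, with a log2 fold change of -2.28 (SE 0.41, adjusted p = 1.72e-07 in the authors' deposited table), and the value in siRFX7 was -0.38 (SE 0.42, adjusted p = 0.525). The difference between the Nutlin-3a effects, 1.90 (SE 0.59), passed the z test at an adjusted p of 0.0249. NDUFA4 itself had a mean count above 1000 and rose with Nutlin-3a in siRFX7 (0.27).

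Complex V held the nuclear member with the largest fall among those with a mean count of at least 100. ATP5F1C, the gamma subunit that rotates inside the catalytic head (chromosome 10, 7788129 to 7807815, plus strand), had 5012 normalized counts in siControl with DMSO, 4482 in siControl with Nutlin-3a, 2604 in siRFX7 with DMSO and 2309 in siRFX7 with Nutlin-3a. Both siRFX7 groups were low, and within each siRNA the Nutlin-3a group was slightly below DMSO. In the authors' deposited tables the log2 fold change with siRFX7 was -0.94 (SE 0.05, adjusted p = 2.16e-67) in DMSO and -0.96 (SE 0.05, adjusted p = 1.4e-67) in Nutlin-3a, that is 52.0% and 51.5% of siControl. The Nutlin-3a effects were -0.16 (SE 0.05) and -0.17 (SE 0.05), both called. The difference between the Nutlin-3a effects was -0.01, with a 95% interval of -0.16 to 0.14.

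The partners of ATP5F1C in the catalytic head and stalk had other values. ATP5F1A (alpha) was not called in any comparison and had 0.11 and 0.04 with siRFX7. ATP5F1B (beta), the most abundant nuclear member by mean count, had 37111, 35642, 35422 and 33230 counts in the same order of groups and fell with siRFX7 in Nutlin-3a by 0.10 (SE 0.04). ATP5F1E (epsilon) rose with siRFX7 in DMSO by 0.47 (SE 0.12). ATP5F1D (delta) was not called in any comparison.

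The c-ring of the ATP synthase is made of identical proteins encoded by ATP5MC1, ATP5MC2 and ATP5MC3. ATP5MC1 (chromosome 17, 48892765 to 48895871, plus strand) had 2878 normalized counts in siControl with DMSO and 3582, 3722 and 3829 in the other 3 groups. It rose with Nutlin-3a in siControl (0.32, SE 0.06), the value in siRFX7 was 0.04 (SE 0.06, adjusted p = 0.62 in the authors' deposited table), and the difference, -0.28 (SE 0.08), passed the z test at an adjusted p of 0.0136. As with NDUFA4L2, siControl with DMSO was the group that stood apart, here as the low one. ATP5MC2 had a difference of -0.43 (SE 0.16) in the same direction that did not pass (adjusted p = 0.0909), and ATP5MC3 had 0.04 (SE 0.10).

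Other parts of complex V rose with siRFX7. The peripheral stalk subunit ATP5PB rose in both treatments (0.31 and 0.22, SE 0.06 each), and so did ATP5S, a factor that is not a subunit (0.50 and 0.45). ATP5IF1, the inhibitor protein that blocks ATP hydrolysis by the synthase, rose with Nutlin-3a in siControl (0.33) and siRFX7 (0.21).

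**Figure D3:**
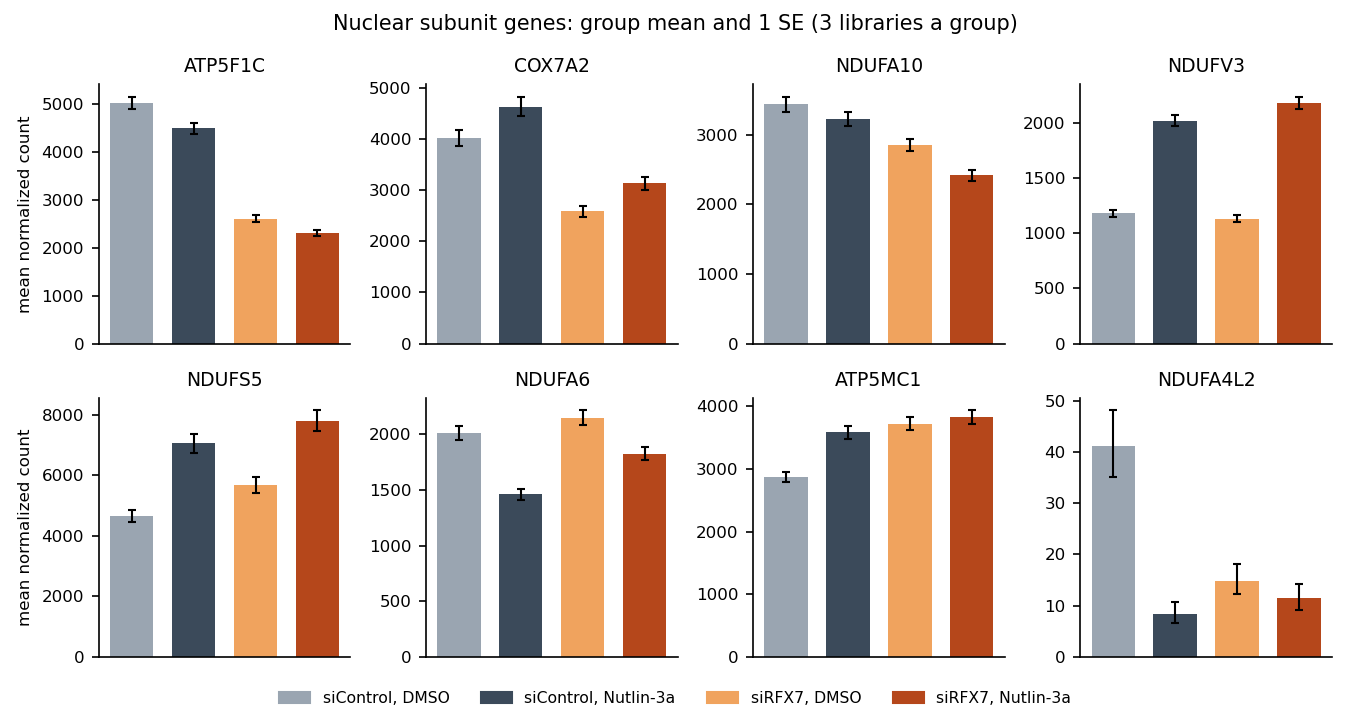
Group means of normalized counts (y axis, from 0) with 1 SE for 8 nuclear members in the 4 groups. ATP5F1C, COX7A2 and NDUFA10 were lower in both siRFX7 groups, NDUFV3 and NDUFS5 were higher and NDUFA6 lower with Nutlin-3a, and siControl with DMSO stood apart in ATP5MC1 and NDUFA4L2.

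The same effect was measured in separate libraries under the other condition. With Nutlin-3a, 18 members rose and 5 fell under both siRNAs, and none was called in opposite directions. The 18 are 66.7% of those raised in siControl and 69.2% of those raised in siRFX7, and the same shares over all genes were 78.0% and 79.3%. With siRFX7, 18 rose and 5 fell in both treatments, again with none in opposite directions, and the 18 are 54.5% and 69.2% of those raised in DMSO and in Nutlin-3a, beside 59.0% and 54.6% over all genes. Members called the same way in both were 23.2% with Nutlin-3a, against 33.1% of all genes, and 23.7% against 16.5% with siRFX7. Across the 84 nuclear members in both tables, the siRFX7 fold changes in the 2 treatments had a Pearson correlation of 0.56 and a Spearman correlation of 0.59, as a description, since genes are not independent. Of the 86 nuclear members, 37 were called in no comparison and 5 in all 4, while 7 of 13 mitochondrial members were called in all 4. This count was not made over all genes, of which 28.6% to 43.2% were called in a single comparison. Comparisons of Nutlin-3a and of siRFX7 share groups of libraries, and no overlap between them is given.

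**Figure D4:**
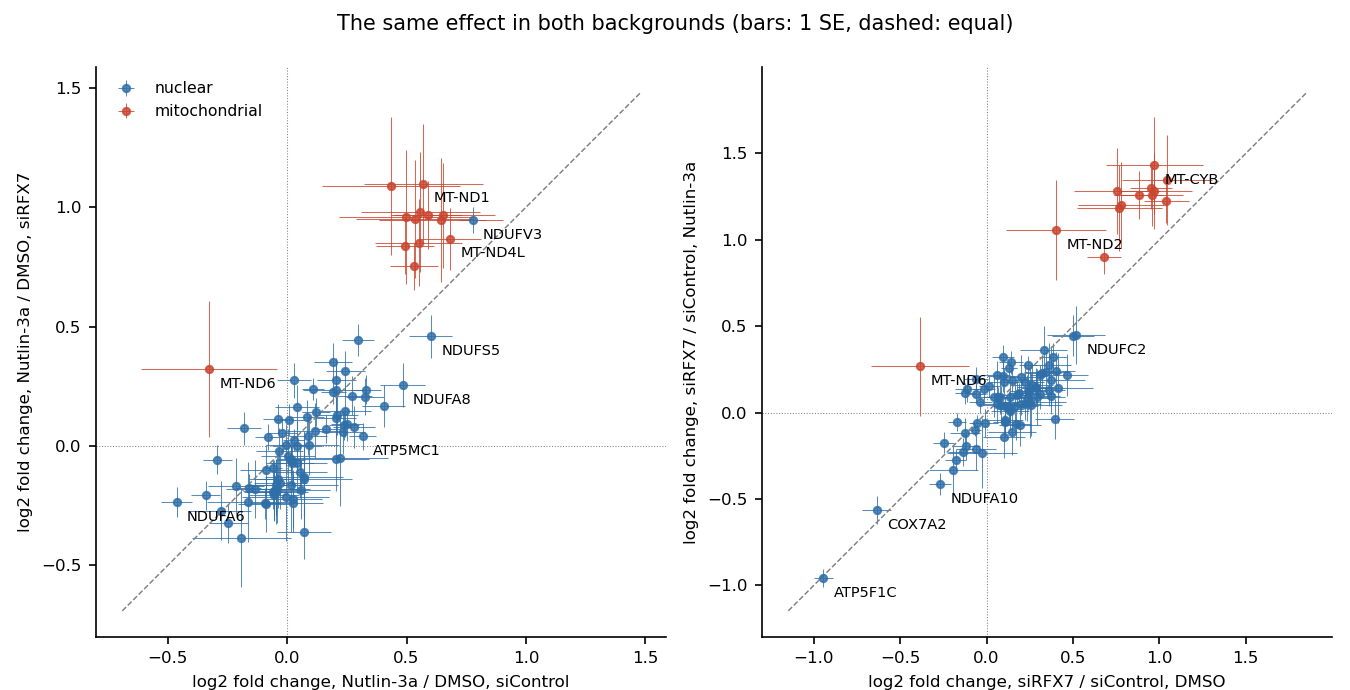
Log2 fold changes of members with a mean count of at least 100 for Nutlin-3a in siControl (x) and siRFX7 (y), left, and for siRFX7 in DMSO (x) and Nutlin-3a (y), right, with bars of 1 SE and a dashed line of equal values. Mitochondrial members (red) lie above the dashed line in both panels, and ATP5F1C and COX7A2 lie low on it at the right. A gene's height above the line is the same difference in both panels, and it was called for no mitochondrial member.

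Several members had counts that cannot be told apart from those of other genes. In GENCODE release 29, 42 of 99 members had over 10% of the 50-base windows of their transcript in transcripts of other genes on either strand, and 7 had over 50%. NDUFV2, a core complex I subunit, had a mean count of 13.8, while its pseudogene row NDUFV2P1 had 2214. With Nutlin-3a the log2 fold changes of NDUFV2P1 were -0.07 in siControl and 0.04 in siRFX7, neither called, against -1.32 and -1.09 for NDUFV2. In the annotation 771 exon bases of NDUFV2 also belong to AP005263.1 on the same strand, and 82.0% of the NDUFV2 windows were shared. NDUFA7 and NDUFA13 were at 11.0 and 51.3, with 76.8% and 41.3% of windows shared. COX6A1 had 1880 against 3430 for COX6A1P2, and UQCRH, with 29.4% of windows shared with UQCRHL, had 3997 beside 4108. In all, 73 pseudogene rows named after 44 members were listed, and 2 of them were above their parent. How reads with several matches were handled is not given in the sources used here. The members with the lowest mean counts were ATP5MF-PTCD1 (1.48), COX8C, ATP5MGL (10.8), NDUFA7 and NDUFV2, and only NDUFV2 among these was called.

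The genes that build and serve the complexes were called in both directions. Of 53 assembly factors, 15 rose and 12 fell with Nutlin-3a in siControl cells, 12 and 15 after siRFX7, 15 and 6 with siRFX7 in DMSO, and 12 and 7 in Nutlin-3a, with medians between 0.00439 and 0.08. The share called was 50.9%, 50.9%, 39.6% and 35.8% in this order, beside 43.2%, 41.4%, 29% and 28.6% of all genes. In the authors' deposited tables UQCC1, a complex III assembly factor, rose with Nutlin-3a by 0.92 and 0.80, and FOXRED1 of complex I assembly fell by 0.86 and 0.97. HIGD2A, which aids complex IV assembly, fell with siRFX7 by 0.72 and 0.91, and COX19 of copper delivery rose by 0.85 and 0.90. SCO2, a copper chaperone of complex IV and a known p53 target, had a mean count of 13.9 and was not called.

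The 78 listed proteins of the mitochondrial ribosome, which translates the mitochondrial messages, gave 14 higher and 23 lower with Nutlin-3a in siControl and 12 and 23 in siRFX7. With siRFX7 they gave 17 higher and 6 lower in DMSO, then 13 and 6 in Nutlin-3a, with medians of 0.03 and 0.07. The shares called, 47.4%, 44.9%, 29.5% and 24.4%, were near those of all genes (43.2%, 41.4%, 29% and 28.6%). MRPL10 fell with siRFX7 in both treatments (-0.55 and -0.58), and MRPL11 fell with Nutlin-3a under both siRNAs (-0.75 and -0.77), in the authors' deposited tables.

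Of 28 genes of mitochondrial DNA upkeep and expression, 8 rose and 5 fell with Nutlin-3a in siControl cells, 7 and 5 after siRFX7, 7 and 1 with siRFX7 in DMSO, then 6 and 4 in Nutlin-3a. Their shares called, 46.4%, 42.9%, 28.6% and 35.7%, stood beside 43.2%, 41.4%, 29% and 28.6% of all genes. RRM2B, the p53-induced ribonucleotide reductase subunit that supplies deoxynucleotides for mitochondrial DNA, had 2615 normalized counts in siControl with DMSO, 10503 in siControl with Nutlin-3a, 4961 in siRFX7 with DMSO and 13674 in siRFX7 with Nutlin-3a. It rose in all 4 of the authors' deposited tables, by 2.01 and 1.46 with Nutlin-3a and by 0.92 and 0.38 with siRFX7. TFAM, which packages mitochondrial DNA and activates its transcription, fell with Nutlin-3a (-0.41 and -0.23) and had 0.06 in DMSO and 0.23 in Nutlin-3a with siRFX7, the latter called. TFB2M, a mitochondrial transcription factor, rose with siRFX7 (0.36 and 0.29), and MTERF3, a repressor of mitochondrial transcription, fell with Nutlin-3a (-0.95 and -0.78). The lowest values of this list with siRFX7 were -0.26 in DMSO, for the mitochondrial RNA polymerase POLRMT, and -0.29 in Nutlin-3a, for TWNK. TWNK rose with Nutlin-3a (0.50 and 0.26). The part of these genes in the mitochondrial rise was not tested.

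Of 13 listed regulators of mitochondrial biogenesis, 7 rose and 5 fell with Nutlin-3a under each siRNA, 2 rose and 7 fell with siRFX7 in DMSO, and 3 rose and 5 fell in Nutlin-3a. The shares called were 92.3%, 92.3%, 69.2% and 61.5%, beside 43.2%, 41.4%, 29% and 28.6% of all genes. ESRRB, an orphan nuclear receptor, rose in all 4 of the authors' deposited tables, by 2.58 and 2.66 with Nutlin-3a and by 0.52 and 0.60 with siRFX7. NRF1 fell with Nutlin-3a by 1.14 (SE 0.07) and 0.89 (SE 0.08). ESRRA, a nuclear receptor of respiratory genes, rose with Nutlin-3a (0.63 and 0.76) and fell with siRFX7 (-0.45 and -0.32). MYC, a growth regulator, likewise rose with Nutlin-3a (0.87 and 0.48) and fell with siRFX7 (-0.44 and -0.83), and the difference of its Nutlin-3a effects was -0.39 (SE 0.10, adjusted p = 0.00388, z test). GABPB2 fell with siRFX7 in both treatments (-0.76 and -0.67). PPARGC1A was not in the tables. In the citric acid cycle, which feeds the chain, 5 of 14 genes rose and 4 fell with Nutlin-3a in siControl cells, and 6 and 2 after siRFX7. With siRFX7, 2 rose and 4 fell in DMSO, against 5 and 1 in Nutlin-3a. The shares called were 64.3%, 57.1%, 42.9% and 42.9%, beside the all-gene shares just given. OGDH, which oxidizes oxoglutarate, rose with Nutlin-3a (0.53 and 0.63), while IDH2 (-0.68 and -0.51) and fumarase, FH (-0.57 and -0.48), fell. DLD, the shared dehydrogenase subunit of the oxoacid complexes, fell in the authors' deposited tables of siRFX7 by 1.29 (SE 0.05) in DMSO and 1.16 (SE 0.05) in Nutlin-3a.

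Of 15 electron carriers and exchangers, 4 rose and 2 fell with Nutlin-3a in siControl cells, and 5 and 1 after siRFX7. With siRFX7, 2 rose and 4 fell in DMSO, against 4 and 3 in Nutlin-3a. The shares called were 40.0%, 40.0%, 40.0% and 46.7%, beside 43.2%, 41.4%, 29% and 28.6% of all genes. Cytochrome c1 of complex III, CYC1, which the name rule leaves out, had log2 fold changes of -0.17 and -0.14 with siRFX7, both called. Cytochrome c itself, CYCS, rose with siRFX7 by 0.23 and 0.26. SLC25A6, an exchanger of ADP for ATP, rose with Nutlin-3a (0.59 and 0.36) and fell with siRFX7 (-0.18 and -0.40). SLC25A4, another one, also fell with siRFX7 (-0.48 and -0.40).

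**Figure D5:**
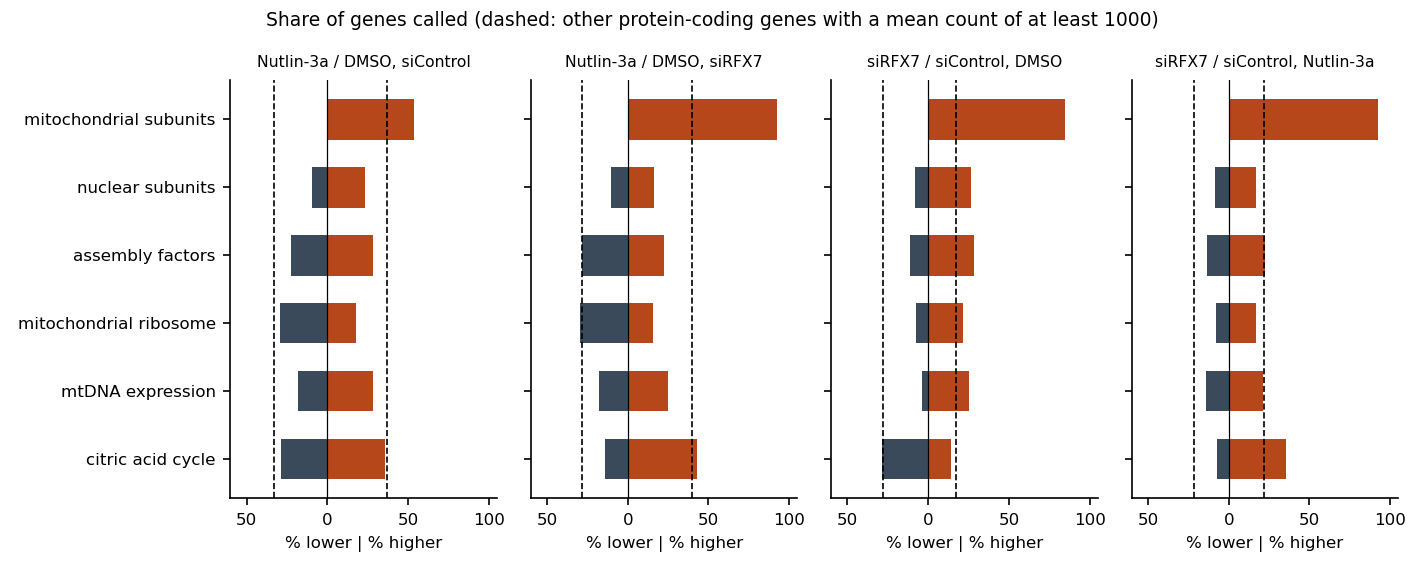
Share of genes called higher (right of 0) and lower (left of 0), in percent (x axis), for mitochondrial and nuclear subunits and 4 lists of related genes (y axis) in the 4 comparisons; dashed lines are the shares among 5734 other protein-coding genes with a mean count of at least 1000. The bar of the mitochondrial subunits reaches past the dashed line on the higher side in each panel and has no lower part.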

How the data were processed

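RNA of 12 libraries in 4 groups was sequenced. Per the submitters' processing notes, tools included bcl2fastq 2.20.0.422, Trimmomatic 0.39, FastQC 0.11.9, cutadapt 2.10, SAMtools 1.10, Picard, featureCounts 1.6.5 and DESeq2 1.20.0, with build hg38. The aligner, annotation, strand setting and treatment of multiply matching reads are not given in the sources used here.

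The authors deposited 4 tables of group statistics. Their mean normalized count is a signal (counts over size factors), their fold changes and standard errors are log2 values, their test statistic is a score, and each p-value is theirs, adjusted or not, per the file headers. Adjusted p-values equal Benjamini-Hochberg over each table. Fold changes of the siRNA comparison are taken as knockdown over control, since the 4 tables then close to 1.27e-14 and otherwise miss by a median of 0.374.

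Computed here (Python 3.11.15, pandas 2.3.3, scipy 1.17.1) were group means from the overall mean and the fold changes, replicate variation from the standard errors, and the z test of the difference of Nutlin-3a effects, which takes standard errors as known. These calculations were run on simulated counts, with standard errors built from the simulated dispersion. That run cannot show how the z test behaves when standard errors are estimated from few libraries. The planned edgeR test needs values per library and was not run. Group means sum to between 2.59e+07 and 2.74e+07, and the depth of single libraries is unknown.

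Named genes were every mitochondrial member, the called nuclear members with the highest and lowest fold change per complex and comparison, members called in the difference test, the 5 most and 5 least abundant members, tissue isoforms, RFX7, genes among the 3 leading ones of each list and comparison, and SCO2, TFAM, RRM2B, CYC1 and CYCS. Further members were named after their values were seen, to complete a complex. Members and lists were chosen with earlier results of these data known. Alternatives covered thresholds, 3 scalings, adjustment sets and subsets of members. Of the listed IDs, 23164 of 23195 were in GENCODE release 29.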

Additional observations from a re-analysis of the deposited data

Results flagged for a closer look

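In 2 members the Nutlin-3a effect differed between the siRNAs by the z test on the difference itself. For NDUFA4L2 the difference, siRFX7 minus siControl, was 1.90 on the log2 scale (SE 0.59, adjusted p = 0.0249), at a mean count of 19.0. For ATP5MC1 it was -0.28 (SE 0.08, adjusted p = 0.0136), at a mean count of 3503. Of all genes, 6.2% were called in this test.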

How the results depend on the processing

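The values are group statistics, so leaving out a replicate could not be run. No paired analysis was possible because the tables hold no values per library. Of 100 alternative counts of called members, 83 were within 1.5 times the reported one, and none of 80 alternative medians moved by more than the spread between replicates. For the medians this says little. The scalings move every gene alike by less than that spread, and some subsets drop no member, so many of these medians could not have moved further. The alternative counts were made over members only, so no share of all genes stands beside them. With a minimum absolute log2 fold change of 0.58, Nutlin-3a gave 6 higher and 2 lower members in siControl cells, and 13 and 1 after siRFX7. The siRFX7 effect then gave 12 higher and 3 lower in DMSO and 13 and 1 in Nutlin-3a. In the difference of Nutlin-3a effects 0 were below 0. At an adjusted p below 0.01, siRFX7 in Nutlin-3a gave 4 lower members, and 0 were called in either direction in the difference test. Scaling to equal totals without mitochondrial genes also gave 4 lower with siRFX7 in Nutlin-3a. Without members with a mean count under 100, 0 were above 0 in the difference test. Among members with at most 10% of windows shared, an alternative added after the data were seen, 17 were higher with Nutlin-3a in siRFX7, 17 with siRFX7 in DMSO and 13 in Nutlin-3a, from fewer members. Under the 3 scalings no called named member changed direction, and 7 values of 5 members that were not called changed sign. With Nutlin-3a after siRFX7, ATP5MC1 became -0.0129 (equal totals) and -6.68e-05 (without mitochondrial genes) and NDUFA7 -0.0121 (equal totals). Without mitochondrial genes, ATP5MC2 became 0.00544 with siRFX7 in Nutlin-3a and NDUFV3 0.0034 with siRFX7 in DMSO. The COX6B1 difference became -0.00697 (equal totals) and -0.0095 (centred). Scaling shifted fold changes by at most 0.06 on the log2 scale, so values near that size depend on it.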
